A study of Mus musculus with 4 samples.

Results

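The expression of 8 genes of cholesterol metabolism was followed in mouse lung endothelial cells (ECs). The genes were chosen by symbol from the 24063 gene symbols in the deposited tables. Of these, 5 encode enzymes of cholesterol synthesis (Hmgcs1, Idi1, Fdps, Sqle and Lss), Srebf2 and Insig1 encode regulators of the pathway, and Abca1 encodes an exporter. The set was chosen under the name of synthesis and uptake, but none of the 8 encodes an uptake receptor, and Abca1 carries cholesterol out of the cell. All 8 were listed and all 8 passed the filter on low counts. ECs were isolated with CD31 beads from the lungs of C57BL6J mice (C57BL6 in the sample labels), 8 weeks old, at 7 days after left unilateral pneumonectomy (PNX), or from mice that had a sham operation (thoracotomy without PNX). Each group had 2 libraries (4 in all), and each library is described as the pooled cells of 2 mice. By that description the spread between replicates is one between pools. RNA was sequenced as stranded polyadenylated libraries.

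Cells make cholesterol from acetyl-CoA by way of mevalonate, isoprenoids and squalene, a route that also feeds protein prenylation. The transcription factor SREBP-2, the product of Srebf2, switches on the enzymes when sterol is low in the endoplasmic reticulum, while INSIG1 holds SREBP-2 back there when sterol is plentiful. Liver X receptors act on the other side and switch on export through ABCA1 when oxysterols accumulate. In the lung, cholesterol is part of the surfactant made by alveolar type 2 cells, and in ECs it shapes caveolae and the membranes of dividing cells.

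The promoters in the RefSeq table of GRCm38.p6, the assembly known as mm10, run from 250 bases before to 50 bases after the annotated start, and 6 of the 8 genes had one. Sqle and Fdps had no entry. The windows were searched on both strands for the core of the sterol regulatory element bound by SREBP (TCACNCCA), for the CCAAT box of its partner NF-Y (CCAAT) and for a spaced repeat of the kind bound by liver X receptors (the half-site GGTNA, any 5 bases and GGTNA again). The letters of the first were settled after the windows had been seen. The sterol element core was found in Hmgcs1 and Srebf2, 2 of the 6 windows, against 4.36% of all 32851 windows of this length in the table. A CCAAT box was found in 5 of the 6 against 37.4% of all windows, and the receptor repeat in Abca1 alone of the 6 against 0.718% of all. The windows of Hmgcs1 (chr13:119690101-119690400, plus strand), Srebf2 (chr15:82147019-82147318, plus strand) and Abca1 (chr4:53159846-53160145, minus strand) are shown because they stand for an enzyme that rose, the regulator of the enzymes and an exporter that rose, with matches in capitals.
Hmgcs1: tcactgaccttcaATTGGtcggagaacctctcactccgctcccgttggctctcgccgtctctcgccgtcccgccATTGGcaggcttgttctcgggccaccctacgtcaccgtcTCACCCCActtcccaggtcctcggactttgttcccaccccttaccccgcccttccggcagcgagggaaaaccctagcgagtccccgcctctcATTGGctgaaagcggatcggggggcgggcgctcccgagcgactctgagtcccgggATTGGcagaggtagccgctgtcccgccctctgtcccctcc
Srebf2: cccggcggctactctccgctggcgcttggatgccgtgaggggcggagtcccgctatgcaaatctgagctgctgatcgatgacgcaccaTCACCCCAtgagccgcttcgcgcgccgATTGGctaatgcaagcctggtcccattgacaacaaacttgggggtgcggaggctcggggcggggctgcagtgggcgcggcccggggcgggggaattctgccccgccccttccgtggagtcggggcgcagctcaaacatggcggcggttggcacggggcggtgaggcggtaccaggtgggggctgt
Abca1: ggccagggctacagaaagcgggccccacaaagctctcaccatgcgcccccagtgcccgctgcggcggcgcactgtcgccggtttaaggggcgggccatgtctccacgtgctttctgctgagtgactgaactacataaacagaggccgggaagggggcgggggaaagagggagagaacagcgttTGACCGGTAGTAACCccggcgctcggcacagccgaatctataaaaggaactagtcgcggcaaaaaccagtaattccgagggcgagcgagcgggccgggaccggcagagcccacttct
In Hmgcs1 the sterol element core starts 137 bases before the annotated start, with CCAAT boxes on the reverse strand (read as attgg) on both sides of it. In Srebf2 it starts 162 bases before the start and is followed by 1 CCAAT box. The Abca1 repeat lies on the reverse strand and begins 67 bases before the start used for its window. The gene position given below for Abca1 reaches further upstream, to 53159988. By that position the repeat lies within the gene. These matches are descriptions of the letters, and binding was not measured.

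The libraries held between 41367439 and 50952873 counts with 1 transcript per gene. Cdh5 was the most abundant of 12 endothelial markers, all of which were detected, but Sftpc, the surfactant gene that defines alveolar type 2 cells, had more counts than Cdh5 in both groups, with means of 171000 and 111000 normalized counts in sham and post-PNX libraries. The mice are described as male, yet all 44 chromosome Y genes listed had 0 counts in every library and Xist, expressed from the inactive X, had between 31872 and 33792 normalized counts. This held in all 4 libraries, so no result could be given without them. Fewer cells of a type and less RNA per cell cannot be told apart in such bulk samples.

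Among the 8 genes, Hmgcs1, Sqle, Fdps and Abca1 rose after PNX by about the same amount, between 1.18-fold and 1.23-fold. The regulators did not rise with them. Srebf2 and Insig1 were 0.97 and 0.95 of their sham level, and neither passed the test, nor did Idi1 and Lss. A gene passed the test when its adjusted p was under 0.01 in edgeR's quasi-likelihood test over all 16208 genes tested, with Benjamini-Hochberg adjustment. Thus 4 of 8 genes were higher and 0 lower, where 29.3% of all genes tested were higher and 27.8% lower by the same test. Since 57.1% of all genes passed in either direction, the share of the 8 that passed lay below the background and is no result about these genes. None of the 8 went beyond the log2 fold change of 1 that the study's methods asked for, which 5.9% of all genes did upward and 1.66% downward.

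**Figure D1:**
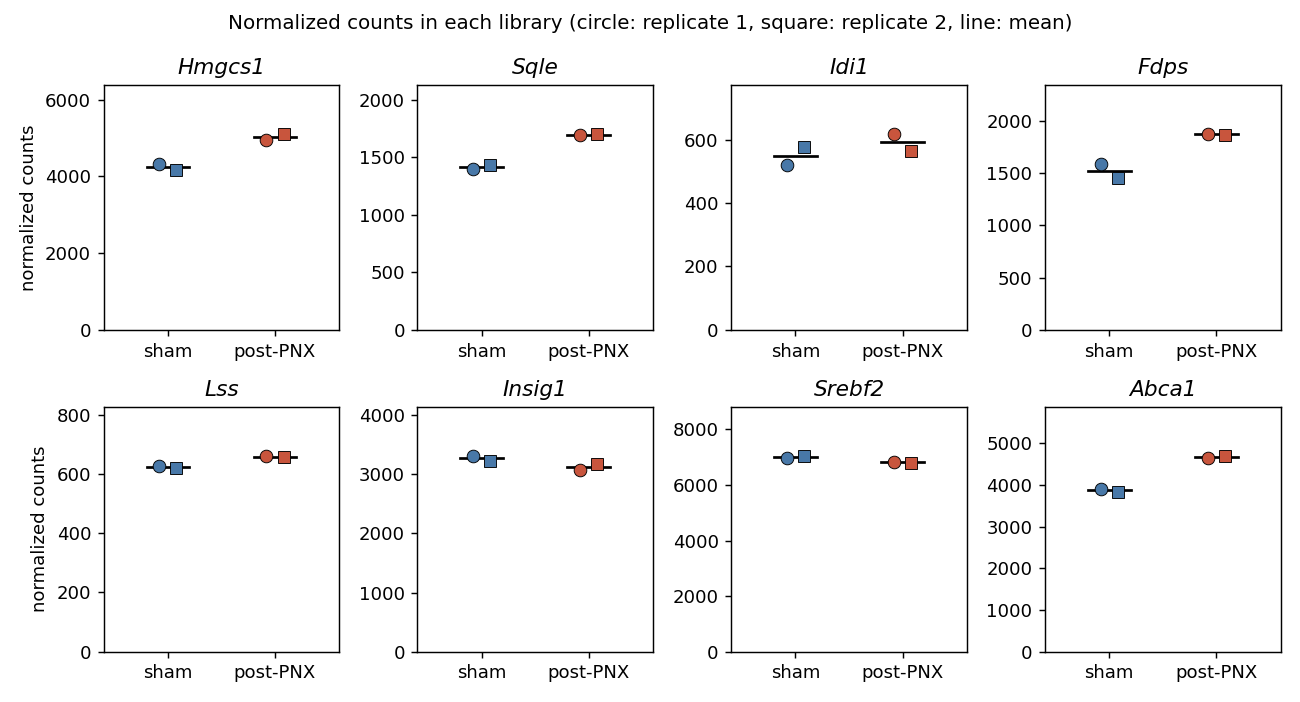
Normalized counts (y axis, from 0) of the 8 genes in the 2 sham (blue) and 2 post-PNX (red) libraries, with replicate 1 as a circle, replicate 2 as a square and the mean as a line. Hmgcs1, Sqle, Fdps and Abca1 are higher in both post-PNX libraries, the Idi1 groups overlap, and Srebf2 is nearly level.

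Hmgcs1 (chromosome 13 from 119690351 to 119708260) encodes the cytosolic HMG-CoA synthase, which makes the precursor of mevalonate. Sham libraries had 4323.1 and 4163.2 normalized counts and post-PNX libraries 4947.6 and 5104.2. Both post-PNX libraries were above both sham libraries, as was true of 40.8% of all genes tested. The sham mean was 4243 ± 113 (SD, n = 2) and the post-PNX mean 5026 ± 111 (SD, n = 2). By edgeR's test this was a log2 change of 0.24 with a standard error of 0.028 and an adjusted p of 2.3e-11. The tables list 2 transcripts of Hmgcs1 whose counts differed by at most 5 in a library. GENCODE places the antisense gene Gm48342 within Hmgcs1, and whether the counting used strand is not given in the sources used here.

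Idi1 (chromosome 13 from 8885606 to 8892396), the isomerase that sets the balance of the 2 isoprenoid building blocks, had 520.9 and 577.0 normalized counts in sham and 618.1 and 564.9 in post-PNX libraries. The groups overlapped, because the second post-PNX library lay below the second sham library. By edgeR's test the log2 change was 0.11 with a standard error of 0.068 and an adjusted p of 0.135. Its 95% confidence interval ran from -0.02 to 0.25, which covers the size of the rise of Hmgcs1. Leaving out 1 library at a time gave values between 0.04 and 0.19.

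Fdps (chromosome 3 from 89093588 to 89101967) encodes farnesyl diphosphate synthase, which stands where the route branches to sterols and to prenyl groups. Its normalized counts were 1587.2 and 1457.7 in sham and 1874.9 and 1865.2 in post-PNX libraries. The post-PNX libraries were close together and above both sham libraries, which were further apart. By edgeR's test the log2 change was 0.29, the highest of the 8, with a standard error of 0.041 and an adjusted p of 8.8e-09. It lay between 0.24 and 0.36 with any 1 library left out. Fdps shares its locus with Gm43738, another coding gene on the same strand, so the assignment of some reads is uncertain.

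Sqle (chromosome 15 from 59315092 to 59331193) encodes squalene epoxidase, which adds the first oxygen to squalene. It had 1396.9 and 1429.2 normalized counts in sham and 1692.1 and 1702.5 in post-PNX libraries. The groups were far apart for their spread, with SDs of 22.8 in sham and 7.36 after PNX. Of all genes tested 40.8% had both post-PNX libraries above both sham libraries, and 22.7% rose by more than Sqle. The log2 change was 0.26 with a standard error of 0.042, and edgeR's test gave an adjusted p of 1.2e-07.

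Lss (chromosome 10 from 76531565 to 76557139), which encodes lanosterol synthase and closes the sterol ring after squalene epoxidase, had 628.7 and 619.8 normalized counts in sham and 662.3 and 656.3 in post-PNX libraries. The post-PNX libraries were the higher ones, but by a small amount. The log2 change was 0.08 with a standard error of 0.062, and edgeR's test gave an adjusted p of 0.266. It had a 95% confidence interval from -0.05 to 0.20. The antisense gene 4930483K19Rik overlaps Lss and had 374 counts over the 4 libraries.

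Srebf2, the factor that drives the enzymes, had the most counts of the 8 genes. Srebf2 (chromosome 15 from 82147269 to 82205379) had 6976.5 and 7056.2 normalized counts in sham and 6828.4 and 6809.0 in post-PNX libraries. The log2 change was -0.04 with a standard error of 0.024, and edgeR's test gave an unadjusted p of 0.0905. The 95% confidence interval ran from -0.09 to 0.01. The interval leaves out a change of the size seen in Hmgcs1, Sqle, Fdps or Abca1. Mir33, the microRNA gene inside Srebf2, had 0 counts over the 4 libraries, which were made from polyadenylated RNA.

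Insig1 (chromosome 5 from 28071412 to 28078662), itself a target of SREBP-2 as well as its brake, had 3316.6 and 3229.4 normalized counts in sham and 3076.6 and 3168.8 in post-PNX libraries. The groups did not overlap in Insig1 or Srebf2, with the post-PNX libraries lower, and 40.5% of all genes tested showed that order. The log2 change of Insig1 was -0.07 with a standard error of 0.031 and an adjusted p of 0.0467 in edgeR's test, short of the threshold of 0.01, with a 95% confidence interval from -0.13 to -0.01.

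Abca1 (chromosome 4 from 53030789 to 53159988) encodes the transporter that loads cholesterol onto apolipoprotein A-I and is a target of liver X receptors. It had 3900.0 and 3831.9 normalized counts in sham and 4641.0 and 4698.6 in post-PNX libraries. Both post-PNX libraries exceeded both sham libraries by many times the spread within a group. Of all genes tested 40.8% had both post-PNX libraries above both sham libraries, and 22.2% rose by more than Abca1. The sham mean was 3866 ± 48.2 (SD, n = 2) and the post-PNX mean 4670 ± 40.8 (SD, n = 2). By edgeR's test this was a log2 change of 0.27 with a standard error of 0.028 and an adjusted p of 6.1e-13. The exporter and 3 synthesis enzymes thus rose side by side.

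The size of each change depended on what the libraries were scaled to. The 12 endothelial markers made up 12340 and 12470 CPM (counts scaled to library size) in sham and 10310 and 10320 in post-PNX libraries, and 10 of the 12 fell. With libraries scaled to these markers in place of all genes, the median log2 fold change of all genes tested moved from 0.00 to 0.27. All 8 genes were then higher with an adjusted p under 0.01 in edgeR's test. So were 9787 of the 16208 genes tested, while 1349 were lower, so the count of 8 is no result about these genes. Hmgcs1 had a log2 fold change of 0.51, Sqle of 0.53, Fdps of 0.56 and Abca1 of 0.54. Idi1 and Lss passed at 0.38 and 0.35. Srebf2 and Insig1 changed sign, to 0.23 and 0.20, which is below the shifted median. This scaling shifts every gene by about the same amount.

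**Figure D2:**
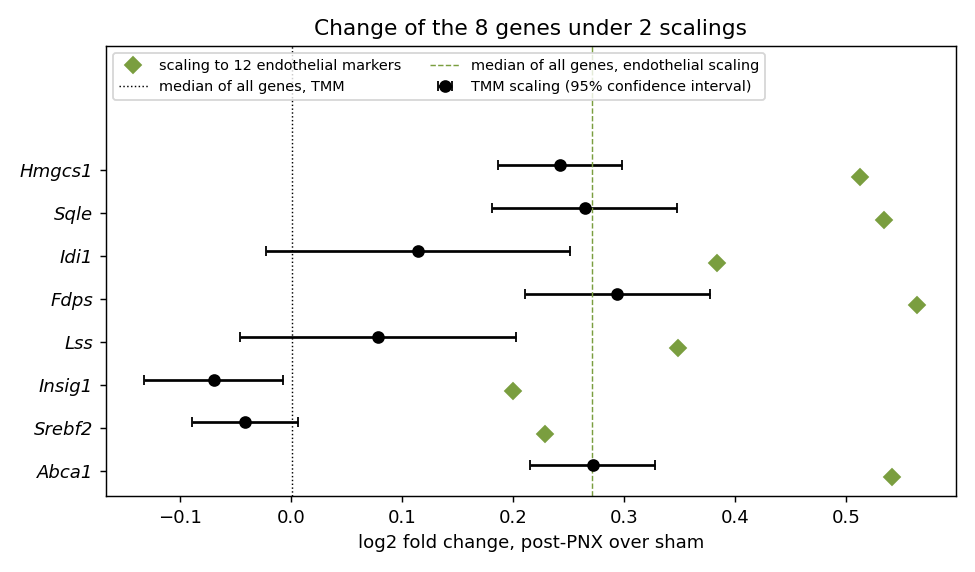
Log2 fold change of post-PNX over sham (x axis) for each of the 8 genes, as black points with 95% confidence intervals under edgeR's TMM scaling and as green diamonds under scaling to 12 endothelial markers, with the median of all genes tested as a dotted and a dashed line. The green points sit about 0.27 to the right of the black ones, so that Srebf2 and Insig1 pass from just under to just over 0, while staying left of the green median line.

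A ratio of genes within a library does not depend on that scaling. On the scale of the authors' FPKM (fragments per kilobase of transcript, scaled to library depth), Hmgcs1 over Srebf2 was 0.79 and 0.75 in sham and 0.93 and 0.96 in post-PNX libraries. Hmgcs1 over Insig1 was 0.96 and 0.95 in sham and 1.19 in both post-PNX libraries. By FPKM Hmgcs1 was thus just below Insig1 in the sham libraries, with ratios close to 1, and above it in the post-PNX libraries. The libraries also held RNA of other cells, so this order is not one of ECs alone. Abca1 over Srebf2 went from 0.25 and 0.24 to 0.30 and 0.31. In contrast, Sqle over Hmgcs1 was 0.42 and 0.45 in sham and 0.45 and 0.43 after PNX, and Fdps over Hmgcs1 was 0.90 and 0.86 against 0.93 and 0.89, so the groups overlapped in both. Hmgcs1 over Lss was 5.96 and 5.82 in sham and 6.48 and 6.75 after PNX, without overlap, so this pair of enzymes shifted by 1.12-fold. With 2 libraries per group an exact permutation test of such a ratio cannot go below 0.333 (two-sided), and none was made.

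The order of the levels, on the authors' FPKM scale, was led by Srebf2 with 20.9 ± 0.18 (SD, n = 2) FPKM in sham and 20.4 ± 0.077 (SD, n = 2) in post-PNX libraries. Insig1 with 16.8 ± 0.31 (SD, n = 2), Hmgcs1 with 16.1 ± 0.42 (SD, n = 2) and Fdps with 14.2 ± 0.85 (SD, n = 2) FPKM followed in sham, and the means of neighbours among these lay within 1.14 times of each other. Insig1 and Hmgcs1 were a factor of 1.04 apart, and the sham libraries of these neighbours did not overlap. Sqle (6.99 FPKM) and Abca1 (5.12 FPKM) were lower in sham, and Lss (2.73 FPKM) and Idi1 (2.60 FPKM), whose libraries overlapped, were the lowest. After PNX Insig1 moved from the second to the fourth place, with 16.1 ± 0.31 (SD, n = 2) FPKM, behind Hmgcs1 with 19.2 ± 0.39 (SD, n = 2) and Fdps with 17.5 ± 0.095 (SD, n = 2). The other places did not change. The place of Fdps depends on the transcript used. Fdps had 2 transcripts listed, of 1461 and 1245 bases, with nearly equal counts, and the longer was used here. FPKM divides by length, so the shorter would give Fdps a higher level. The order of Fdps among Srebf2, Insig1 and Hmgcs1 is thus not settled in either group. The authors' TPM gave the same ratio of Srebf2 to Idi1 in sham as the FPKM, 8.02.

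**Figure D3:**
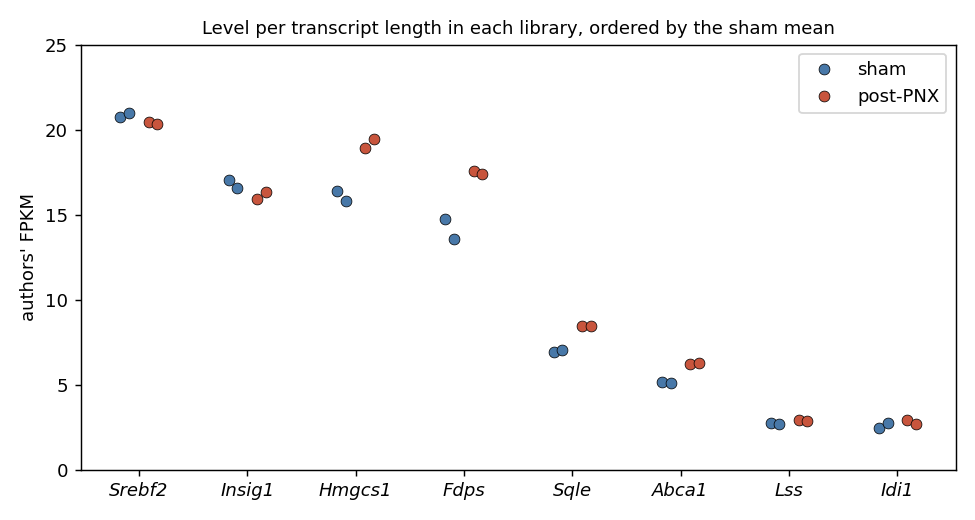
Authors' FPKM (y axis, linear from 0) of the 8 genes in each sham (blue) and post-PNX (red) library, ordered from left to right by the sham mean. Srebf2 leads at about 20.9 FPKM in sham, Hmgcs1 and Fdps move above Insig1 after PNX, and Lss and Idi1 lie lowest with overlapping points. Fdps is plotted by the longer of its listed transcripts, and its place depends on that choice.

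The other enzymes of the pathway were counted from lists. Of 5 further enzymes of the mevalonate part, 3 rose and 0 fell, with a median log2 fold change of 0.20. Mvd, which makes isopentenyl diphosphate, had a log2 fold change of 0.34 and Mvk, the mevalonate kinase, one of 0.22 (adjusted p = 4.7e-07 and 3.7e-04 from edgeR's test). Acat2 had 0.18 and did not pass (adjusted p = 0.0186 from the same test). Of 10 further enzymes of the sterol part, 4 rose and 0 fell, with a median of 0.09. Cyp51, which demethylates lanosterol, had the highest value, 0.39, and Fdft1, which makes squalene, had 0.33 (adjusted p = 4.4e-13 and 1.1e-11 from edgeR's test). The lowest value was -0.17 for Tm7sf2, a sterol reductase, which did not pass (adjusted p = 0.0742 from the same test). With the 5 enzymes described above, 10 of 20 enzymes rose, 0 fell and the remaining 10 did not pass, of which 7 had positive and 3 negative values. The median over the 20 was 0.15, against 0.00 for all genes tested, of which 29.3% were higher, 27.8% lower and 57.1% either. The enzymes were chosen with earlier results of these data known, so this comparison is a description and no test. By DESeq2's Wald test 7 of the 20 rose and 0 fell, where 3503 of all genes rose and 3268 fell. Of the 5 further mevalonate enzymes 1 rose by it, Mvd. Mvk, Pmvk and Msmo1 had adjusted p values of 0.0265, 0.0208 and 0.0829 in that test. Without sham replicate 2, 9 of the 20 rose and 1 fell in edgeR's test.

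Among 8 further regulators the changes were small in both directions, with a median of -0.02. Srebf1, which encodes the SREBP-1 factors, rose by 0.09 on the log2 scale (adjusted p = 0.00612 from edgeR's test), a call that was lost by DESeq2's Wald test (adjusted p = 0.0812), with counts summed over transcripts (adjusted p = 0.0189 from edgeR's test) and when any 1 library was left out. Mbtps2 had 0.03, which became 0.14 without sham replicate 1 and passed in neither case (adjusted p = 0.643 and 0.0366 from edgeR's test). Nr1h2, which encodes liver X receptor beta, fell by 0.12 (adjusted p = 1.1e-04 from the same test), which turned to 0.15 under scaling to endothelial markers. Insig2 had -0.09 and did not pass (adjusted p = 0.0254), and had 0.18 under scaling to endothelial markers. Nr1h3, the other liver X receptor, had means of 1868 ± 24.1 (SD, n = 2) and 1862 ± 27.5 (SD, n = 2) normalized counts in groups that overlapped. The activity of these receptors was not measured, and their part in the change of Abca1 was not tested.

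Of 10 genes tested for uptake and lysosomal release, 5 rose and 1 fell, with a median of 0.07. Lipa, the lysosomal lipase that frees cholesterol from its esters, had a log2 fold change of 0.37 and Lrp1, a large lipoprotein receptor, one of 0.31 (adjusted p = 1.5e-21 and 8.6e-22 from edgeR's test). Stard3, which encodes a cholesterol-binding protein of late endosomes, fell by 0.21 (adjusted p = 2.9e-06 from edgeR's test), but had 0.06 under scaling to endothelial markers. Npc1, which exports cholesterol from the lysosome, had -0.04 and did not pass (adjusted p = 0.16 from edgeR's test), and had 0.23 under that scaling.

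The 8 genes of efflux, esterification and oxidation had the highest median of the 5 sterol lists, with 5 higher, 3 lower and a median of 0.39. Of these, 2 passed the fold threshold upward. Apoe, the apolipoprotein E gene that macrophages also express strongly, had 12440 and 12630 normalized counts in sham and 32900 and 33620 in post-PNX libraries. Its log2 change was 1.41 with a standard error of 0.019, and edgeR's test gave an adjusted p of 4.0e-55. The macrophage markers rose in the same libraries, and their part in this change was not tested. The other was Soat2, an acyltransferase that esterifies cholesterol, with 31.7 and 17.3 normalized counts in sham and 63.9 and 69.1 in post-PNX libraries. Its log2 change of 1.41, with a standard error of 0.25 and an adjusted p of 1.1e-06 in edgeR's test, rested on few counts. Leaving out sham replicate 1 or sham replicate 2 changed it to 1.93 or 1.06. Cyp27a1, a sterol 27-hydroxylase, and Abcg1, an exporter to high-density lipoprotein, had -0.40 and -0.15 (adjusted p = 5.5e-10 and 1.8e-07). Abcg1, like Abca1 a target of liver X receptors, had the opposite sign to Abca1 under TMM scaling, and the cause was not tested. Under scaling to endothelial markers Abcg1 had 0.12 and Cyp27a1 had -0.13. Over the 5 lists together, 18 of 41 genes tested rose (43.9%) and 5 fell (12.2%), with a median of 0.08. Of all genes tested 29.3% rose and 27.8% fell. The other 18 of the 41 did not pass, so the share that passed in either direction was close to the 57.1% of all genes. The lists were chosen with earlier results of these data known, so these shares are a description and no test. By DESeq2's Wald test 13 rose and 4 fell, where 3503 of all genes rose and 3268 fell. Under scaling to endothelial markers 38 rose and 0 fell, where 9787 of the 16208 genes tested rose and 1349 fell.

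The 10 genes of fatty acid synthesis, which the SREBP-1 factors control more than SREBP-2 does, were divided, with 4 higher and 4 lower and a median of -0.03. Fads2 and Elovl6 had log2 fold changes of 0.56 and 0.46. Scd1, the stearoyl-CoA desaturase, and Elovl5 had -0.52 and -0.28 (adjusted p = 6.0e-33 and 1.1e-18 from edgeR's test). Under scaling to endothelial markers Scd1 still had -0.25, while Elovl5 was at -0.01. By that scaling 8 of the 10 were higher and 1 lower, with a median of 0.24, where 9787 of the 16208 genes tested were higher and 1349 lower.

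**Figure D4:**
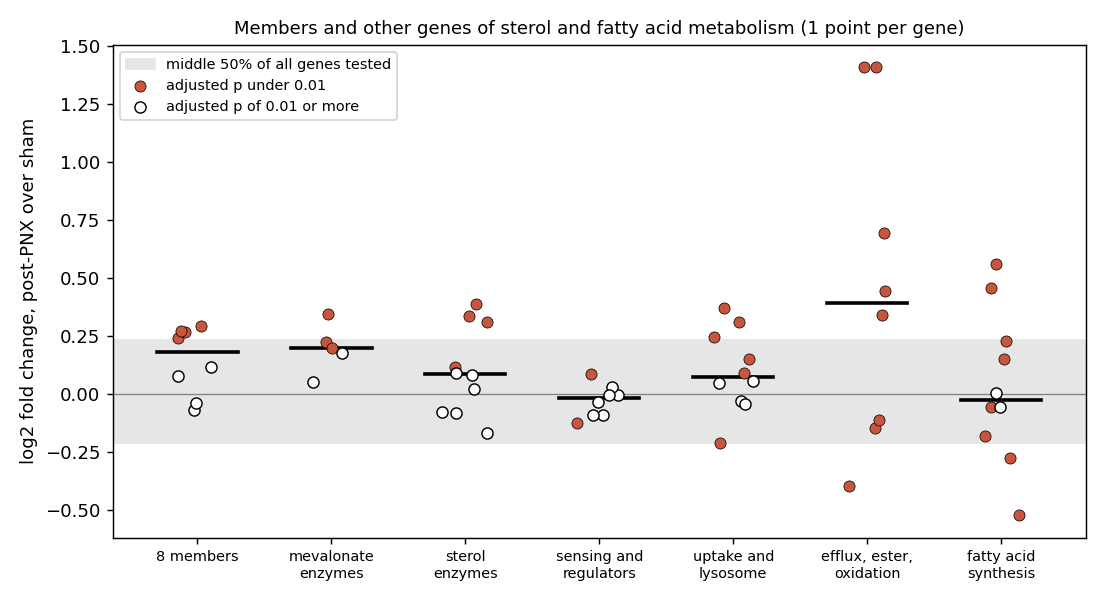
Log2 fold change (y axis, post-PNX over sham, TMM scaling) of the 8 genes and of 6 lists of related genes, 1 point per gene tested, filled red where the adjusted p was under 0.01, with the median as a black line and the middle 50% of all genes tested in grey. The enzyme lists lie mostly between 0 and 0.39 and the efflux list reaches 1.41. Under scaling to endothelial markers none of the genes of the 5 sterol lists passed the test downward, where 1349 of the 16208 genes tested did.

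Other cells moved with the groups. All 9 macrophage and monocyte markers listed rose, from a summed level of 3653 to 3667 CPM in sham to 4997 to 5026 CPM in post-PNX libraries, with Lyz2 the most abundant. All 8 alveolar type 2 markers fell, from 7432 to 7459 CPM to 4855 to 4903 CPM. Of the fibroblast markers 4 rose and 1 fell, from 936.5 to 948.4 CPM to 2943 to 2961 CPM. The 4 smooth muscle and 5 mesothelial markers that passed rose, while 3 of 4 alveolar type 1 markers and all 5 T and B cell markers listed fell. Of the 4 adipocyte markers tested 3 rose, with a summed level of at most 75.7 CPM. Of all markers listed, none was at 0 in all 4 libraries. All 10 genes of cell division rose, from 119 to 120 CPM to 756 to 768 CPM, with a median log2 fold change of 2.98. Macrophages and alveolar type 2 cells also express Abca1 and the synthesis enzymes, and the part of these cells, or of dividing cells, in the changes of the 8 genes was not tested.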

How the data were processed

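For each library the authors deposited counts of reads on 33068 RefSeq transcripts of mm10, without normalization, beside FPKM and TPM values for each transcript. The submitters' processing notes name STAR as a tool. Its version and the counting program are not given in the sources used here. Reads shared by transcripts of 1 gene entered each transcript's count, so the authors' FPKM and TPM, scaled over all transcripts, are low, and the transcript with the most counts stood for each symbol. Labels gave the groups, with 2 libraries each.

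Differences were fitted to the counts by edgeR 4.0.16 under R 4.3.3 (filterByExpr, 16208 genes, TMM factors from 0.9985 to 1.0026, quasi-likelihood F test without covariates, Benjamini-Hochberg adjustment over all genes tested). Normalized counts are scaled to the mean library size. The standard error is the log2 fold change over the square root of F. Depth set a floor of 3 counts, or 0.0589 to 0.0725 CPM, for counting error only. The replicates of a group differed by more than counting noise, with a mean chi-square of 1.77 in sham and 1.53 after PNX. The median SD of log2 normalized counts was small, 0.0374 in sham and 0.0351 after PNX. The p values rest on this spread, and the counts cannot show whether it is that between separate pools of mice. Alternatives were DESeq2 1.42.0 (size factors and Wald test), library size alone, 12 endothelial markers, 2 other filters, the replicate number as a block, summed transcripts, glmTreat and each library left out.

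The 8 genes and the lists were chosen with earlier results of these data known. All 8 genes are named, and from each list the 2 highest, the 2 lowest and those beyond a log2 fold change of 1. Of the genes this rule names, 2 are not reported here. Nr1h3 and some markers were named after their values were seen. Promoters are from RefSeq (GRCm38.p6), gene positions from RefSeq and overlapping genes from GENCODE M21.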

Additional observations from a re-analysis of the deposited data

How the results depend on the processing

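Hmgcs1, Sqle, Fdps and Abca1 stayed higher with an adjusted p under 0.01, and Idi1, Lss, Insig1 and Srebf2 kept their sign and missed it, under the 11 alternatives other than scaling to 12 endothelial markers. That scaling brought the number of the 8 genes that were higher to 8, with Idi1 at 0.384 and Lss at 0.348 now past the threshold and Insig1 at 0.201 and Srebf2 at 0.229 reversed. It moved the calls over all genes to 9787 higher and 1349 lower (82 beyond a log2 fold change of 1), those of the 5 pathway lists to 38 higher and 0 lower, and the median of all genes to 0.271. With a mean of at least 50 counts, 160 genes were lower beyond a log2 fold change of 1, since fewer genes were tested. The glmTreat test against a log2 fold change of 1 called 0 of the 8 genes.

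DESeq2's Wald test called 3503 higher and 3268 lower genes over all genes tested, and 13 higher and 4 lower in the 5 pathway lists. The replicate numbers 1 and 2 are shared by the groups, but nothing pairs their mice, and the differences of replicate 1 and 2 in sham and post-PNX libraries correlated at 0.0202 over 14299 genes. The replicate block gave 4824 higher and 4618 lower genes, against 4743 and 4512 without it, and 4 of the 8 genes higher. With 1 library left out, where the lone library of a group is assumed to vary like the others, 4 of the 8 genes were higher each time. Idi1 and Lss had the fewest counts and the widest confidence intervals of the 8 genes.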

Other observations

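The genes nearest to the mean profile of the 5 synthesis enzymes, by Euclidean distance of centred log2 normalized counts over the 4 libraries, were Txnl1, Hsbp1, Zfp46, Cyth4 and Lpcat3, at distances from 0.00624 to 0.00869. Lpcat3 encodes an acyltransferase of membrane phospholipids. Their log2 fold changes of post-PNX over sham were between 0.20 and 0.21. Of 13394 genes compared, 1696 lay within a distance of 0.1, so 4 libraries single out no gene by this measure.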
